A study of Mus musculus with 15 samples.

Results

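The goblet cell genes described here are 10 genes that make the mucus of the colon or set the fate of the cells that secrete it: the secretory fate regulators Atoh1, Gfi1 and Spdef, the mucins Muc2 and Muc13, the mucus proteins Fcgbp, Clca1, Zg16 and Tff3, and the folding enzyme Agr2. They were chosen by name from the 55335 genes listed in each file, and all 10 of them passed the filter on low values. RNA was sequenced from colon tissue of 15 mice in 3 treatment groups of 5. DSS+ICB+Fp mice were given DSS, immune checkpoint blockade (ICB) and a gavage of Faecalibacterium prausnitzii, a butyrate-producing gut bacterium. DSS+ICB mice were given DSS and checkpoint blockade, and DSS mice were given DSS. DSS is dextran sulfate sodium, a polymer that injures the colon lining, and all 15 mice received it. The labels give no strain, age or sex, no dose or time, no checkpoint antibody, no control antibody or control gavage, and no cage. The blockade or the bacterium therefore cannot be told apart from how it was given or from the cage, and no group without DSS was available to show the level of an uninjured colon.

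Goblet cells arise in the crypt from progenitors that escape Notch signalling and switch on the transcription factor ATOH1. They then fill with MUC2, a very large glycoprotein that is folded in the endoplasmic reticulum, coated with sugars in the Golgi and released as the gel that keeps bacteria away from the colon surface. Loss of goblet cells and thinning of this gel are known features of DSS injury.

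Whole colon tissue was measured, so fewer goblet cells and less RNA per goblet cell cannot be told apart. Levels are given in FPKM, the fragments of a gene scaled to transcript length and to the mapped fragments of the library. The FPKM of a library summed to between 341054 and 443338, and 13243 to 14336 genes had at least 1 FPKM. In DSS+ICB mouse 3 the geometric mean of 13 epithelial marker genes, Epcam among them, was 24.5 FPKM, against 131.4 to 223.2 FPKM in the other mice. The same library had a summed level of 10 smooth muscle markers of 15560 FPKM, with a highest value of 4964 FPKM elsewhere, and 33.17% of its FPKM came from mitochondrially encoded genes. Its rank correlation with the other libraries had a median of 0.725, and that of DSS+ICB mouse 5 a median of 0.864. Results on the 10 genes that rest on these 2 mice are given with and without one or both of them, and the smooth muscle and mitochondrial shares of mouse 3 apply to each of its values below; their part in the results was not tested.

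Promoters were available for 7 of the 10 genes, as 300 bases from 250 before to 50 after the transcription start (RefSeq, GRCm38.p6). Those of 4 genes are shown, the secretory switch Atoh1 and 3 genes for which the results below turn on their parting or moving together. Capitals mark the E-box CANNTG, the class of motif that basic helix-loop-helix factors such as ATOH1 bind, searched on both strands (it reads alike on both). The windows are chr6:64728875-64729174, chr7:141690090-141690389, chr7:28070986-28071285 and chr12:35992675-35992974, all on the plus strand.
Atoh1: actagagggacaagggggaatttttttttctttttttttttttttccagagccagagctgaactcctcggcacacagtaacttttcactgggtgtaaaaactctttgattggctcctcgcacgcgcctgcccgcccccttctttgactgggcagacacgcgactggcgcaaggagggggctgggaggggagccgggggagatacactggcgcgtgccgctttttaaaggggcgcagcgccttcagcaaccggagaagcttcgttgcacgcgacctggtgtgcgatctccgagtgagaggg
Muc2: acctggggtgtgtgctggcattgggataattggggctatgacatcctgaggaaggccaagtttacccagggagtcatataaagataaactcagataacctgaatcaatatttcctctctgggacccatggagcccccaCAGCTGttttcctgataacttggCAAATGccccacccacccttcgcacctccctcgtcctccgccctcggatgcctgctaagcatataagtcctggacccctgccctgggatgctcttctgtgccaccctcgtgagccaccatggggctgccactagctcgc
Fcgbp: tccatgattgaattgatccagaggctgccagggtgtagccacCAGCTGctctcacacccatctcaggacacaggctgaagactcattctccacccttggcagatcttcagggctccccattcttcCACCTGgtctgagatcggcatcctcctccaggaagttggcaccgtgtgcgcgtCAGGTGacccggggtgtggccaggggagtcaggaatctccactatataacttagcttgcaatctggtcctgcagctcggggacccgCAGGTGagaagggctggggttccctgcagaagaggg
Agr2: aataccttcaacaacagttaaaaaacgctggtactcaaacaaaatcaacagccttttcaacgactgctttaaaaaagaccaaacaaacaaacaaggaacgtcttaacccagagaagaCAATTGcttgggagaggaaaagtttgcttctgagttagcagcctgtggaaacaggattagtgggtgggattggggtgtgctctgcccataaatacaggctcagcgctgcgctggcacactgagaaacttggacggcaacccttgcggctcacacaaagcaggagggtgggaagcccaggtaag
The Fcgbp window held 4 E-boxes, the Muc2 window 2, the Agr2 window 1 and the Atoh1 window 0. The form CAGCTG occurred once each in the Fcgbp and Muc2 windows. An E-box was present in 72.3% of the 32851 promoter windows of the same length and the form named above in 16.3%, so the motif is common in promoters at large. These matches describe the letters of the windows and were not tested as binding sites.

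Atoh1, the switch for all secretory cells of the gut, had the largest separation of the 3 regulators. It measured 23.4, 28.8, 16.8, 14.1 and 28.3 FPKM in DSS+ICB+Fp mice 1 to 5, 15, 9.73, 0.391, 11.2 and 2.22 FPKM in DSS+ICB mice, and 12.3, 9.18, 9.88, 21.1 and 16.1 FPKM in DSS mice. Of the 5 gavaged mice, 4 lay above every DSS+ICB mouse, and DSS+ICB mice 3 and 5 lay below every other mouse. Groups were compared on log2(FPKM + 1), a scale that understates the change of genes with low values, by limma with Benjamini-Hochberg adjustment over 14385 genes, and a gene passed at an adjusted p under 0.05. Atoh1 was higher by 1.85 ± 0.54 in DSS+ICB+Fp than in DSS+ICB (log2, SE, n = 5 each), which did not pass (limma adjusted p = 0.102). Without DSS+ICB mouse 1, the highest of its group, the difference was 2.19 and passed (limma adjusted p = 0.0422). In that fit 226 genes passed higher and 361 lower, beside 1 and 18 with all mice. Without mice 3 and 5 together the Atoh1 difference was 0.81 (limma adjusted p = 0.191). DSS+ICB against DSS gave -1.18 ± 0.54 (adjusted p = 0.435), and -0.14 without mice 3 and 5.

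Gfi1, a zinc finger repressor that acts below ATOH1 and keeps secretory progenitors from the enteroendocrine path, measured 1.91, 1.27, 1.62, 0.807 and 2.11 FPKM in DSS+ICB+Fp mice, 1.17, 1.08, 0.28, 1.06 and 0.272 FPKM in DSS+ICB mice, and 1.16, 0.895, 1.06, 1.36 and 1.85 FPKM in DSS mice. As for Atoh1, mice 3 and 5 of DSS+ICB were the lowest of all. The log2 difference of Gfi1 was 0.54 ± 0.20 for DSS+ICB+Fp against DSS+ICB (limma adjusted p = 0.148) and -0.38 ± 0.20 for DSS+ICB against DSS (adjusted p = 0.459), and without mice 3 and 5 these were 0.25 and -0.09. Its values stand near 1 FPKM, where the added 1 shrinks differences most.

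Spdef is an ETS factor that drives goblet cells to mature. It measured 3.42, 3.14, 3.33, 4.38 and 3.41 FPKM in DSS+ICB+Fp mice, 4.36, 5.07, 0.385, 1.98 and 1.17 FPKM in DSS+ICB mice, and 2.23, 2.34, 1.95, 5.52 and 3.64 FPKM in DSS mice. DSS+ICB mouse 2 stood above all 5 gavaged mice, where for Atoh1 and for Gfi1 4 of them lay above every DSS+ICB mouse. DSS+ICB mice 3, 4 and 5 stood below all gavaged mice. As for Atoh1 and Gfi1, mice 3 and 5 of DSS+ICB were the lowest of all. The difference between DSS+ICB+Fp and DSS+ICB was 0.54 ± 0.34 (log2, limma adjusted p = 0.367), and -0.02 without DSS+ICB mice 3 and 5.

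Muc2, the gel-forming mucin that gives colon mucus its structure, measured 264.9, 280.9, 244.1, 240.1 and 299.6 FPKM in DSS+ICB+Fp mice. DSS+ICB mice had 213.0, 186.7, 13, 259.9 and 149.9 FPKM, and DSS mice had 133.4, 176.2, 259.7, 284.0 and 226.3 FPKM. The gavaged mice were close together and 3 of them lay above every DSS+ICB mouse, while mouse 3 of DSS+ICB was far below every other mouse of the study, of which DSS mouse 1 was the lowest. The log2 difference for Muc2 was 1.18 ± 0.60 between DSS+ICB+Fp and DSS+ICB (limma adjusted p = 0.262) and -0.84 ± 0.60 between DSS+ICB and DSS (adjusted p = 0.56). Without DSS+ICB mouse 3 these were 0.42 and -0.07. Muc2 (ENSMUSG00000025515) lies on chromosome 7 from 141690340 to 141754693 on GRCm38, and its longest transcript in GENCODE M21 has 2926 bases, far short of the full mucin message. The FPKM of Muc2 against that of another gene depends on the transcript model, which does not touch comparisons between mice.

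Muc13 is a transmembrane mucin of the apical surface that absorptive cells express as well as goblet cells. It measured 936.3, 736.0, 816.7, 729.7 and 731.2 FPKM in DSS+ICB+Fp mice, 774.5, 526.1, 65.7, 694.2 and 549.1 FPKM in DSS+ICB mice, and 634.9, 895.9, 686.0, 911.7 and 896.7 FPKM in DSS mice. The 3 groups overlapped, but DSS+ICB mice 2, 3, 4 and 5 lay below the lowest gavaged mouse, at 729.7 FPKM. Mice 2, 3 and 5 of DSS+ICB also lay below every DSS mouse. Mouse 3 stood furthest down, with 4 of the 5 DSS+ICB mice at or above 526.1 FPKM. Differences were 0.97 ± 0.50 for DSS+ICB+Fp against DSS+ICB (log2, limma adjusted p = 0.272) and -0.99 ± 0.50 for DSS+ICB against DSS (adjusted p = 0.455), and without DSS+ICB mouse 3 they were 0.32 and -0.34.

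**Figure D1:**
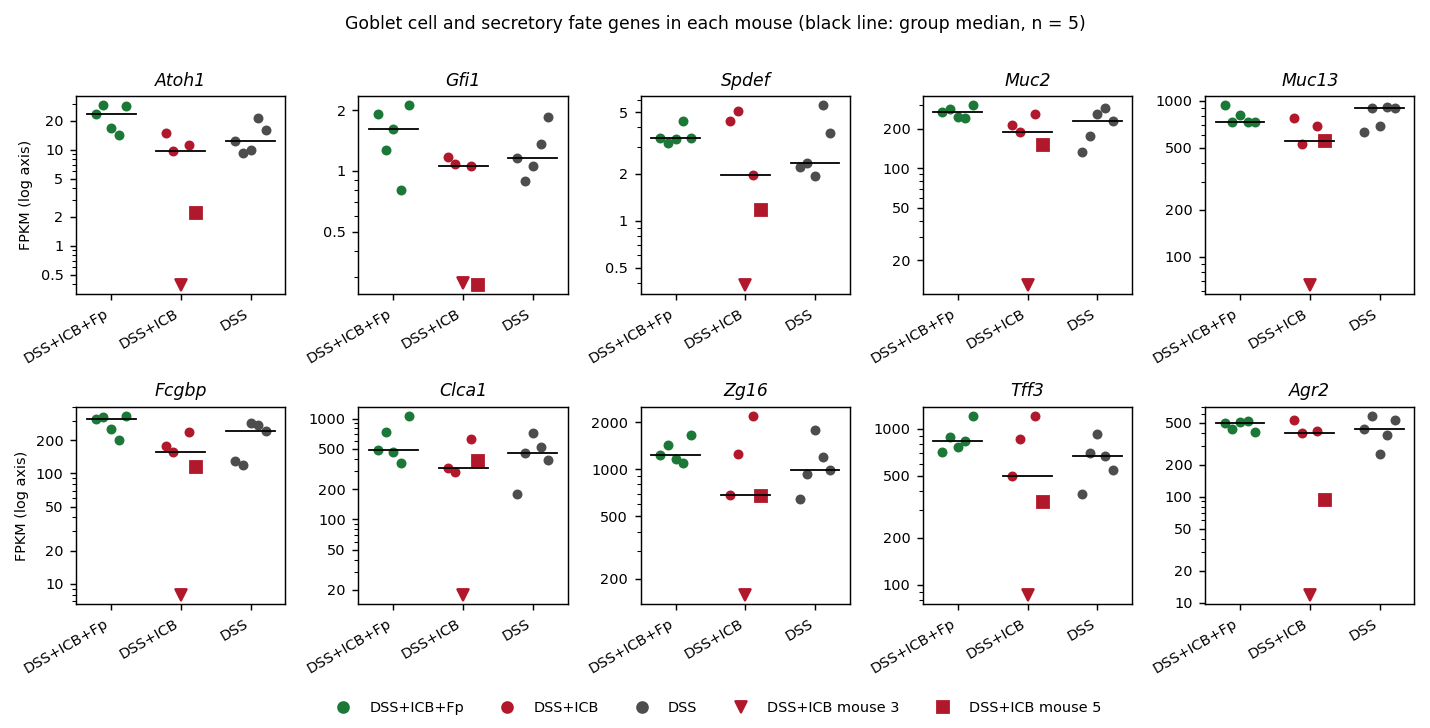
FPKM of the 10 genes in each mouse on log axes, with DSS+ICB+Fp (green), DSS+ICB (red) and DSS (grey) from left to right, 5 mice each, and a black line at each group median. DSS+ICB mouse 3 (triangle) is the lowest of the 15 mice for 9 genes, and for Gfi1 DSS+ICB mouse 5 (square) is slightly lower still, at 0.272 against 0.28 FPKM.

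Among the proteins secreted with MUC2, Fcgbp had the largest difference. FCGBP is a mucus protein that carries von Willebrand D domains and is bound into the gel. It measured 308.2, 324.4, 252.6, 201.2 and 334.3 FPKM in DSS+ICB+Fp mice, 178.6, 157.6, 7.87, 238.6 and 113.3 FPKM in DSS+ICB mice, and 130.7, 119.8, 283.2, 276.2 and 240.2 FPKM in DSS mice. Of the gavaged mice 4 lay above every DSS+ICB mouse, and DSS mice spanned both ranges. The difference was 1.59 ± 0.68 for DSS+ICB+Fp against DSS+ICB (log2, limma adjusted p = 0.193) and 0.75 without DSS+ICB mouse 3 (adjusted p = 0.152). DSS+ICB against DSS gave -1.09 ± 0.68 (adjusted p = 0.511), and -0.24 without that mouse.

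Clca1 encodes a secreted metalloprotease that cuts MUC2 and loosens the gel. It measured 486.7, 733.3, 462.3, 365.5 and 1072 FPKM in DSS+ICB+Fp mice, 323.8, 297.5, 17.7, 623.6 and 379.0 FPKM in DSS+ICB mice, and 179.5, 452.6, 712.1, 525.9 and 388.6 FPKM in DSS mice. Clca1 varied most of the 10 genes within the gavaged group, where its SD on the log2 scale was 0.614. The difference was 1.45 ± 0.74 for DSS+ICB+Fp against DSS+ICB (limma adjusted p = 0.264) and 0.57 without DSS+ICB mouse 3.

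Zg16 encodes a lectin-like protein that binds the wall of Gram-positive bacteria, and Tff3 a trefoil peptide that aids repair of the epithelium. Zg16 measured 1236, 1438, 1160, 1093 and 1657 FPKM in DSS+ICB+Fp mice, 683.7, 1260, 156.8, 2203 and 678.9 FPKM in DSS+ICB mice, and 644.6, 935.2, 1776, 1205 and 988.4 FPKM in DSS mice. Tff3 measured 707.4, 889.3, 765.7, 838.1 and 1206 FPKM in DSS+ICB+Fp mice, 498.6, 862.5, 85.4, 1220 and 341.6 FPKM in DSS+ICB mice, and 380.5, 701.8, 932.0, 672.9 and 543.6 FPKM in DSS mice. For both genes the DSS+ICB group held the highest and the lowest mouse of the study, mice 4 and 3. Differences between DSS+ICB+Fp and DSS+ICB were 0.84 ± 0.52 for Zg16 and 0.99 ± 0.53 for Tff3 (log2, limma adjusted p = 0.352 and 0.285), and without DSS+ICB mouse 3 they were 0.29 and 0.41. DSS+ICB against DSS gave -0.53 for Zg16 and -0.51 for Tff3 with all mice, but 0.02 and 0.07 without mouse 3.

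Agr2 encodes a disulfide isomerase of the endoplasmic reticulum that mice need to make MUC2. It measured 494.9, 435.2, 507.2, 514.0 and 406.5 FPKM in DSS+ICB+Fp mice, 533.8, 396.6, 11.7, 412.5 and 92.9 FPKM in DSS+ICB mice, and 430.8, 582.9, 255.0, 381.7 and 531.7 FPKM in DSS mice. DSS+ICB mice 3 and 5 lay below all other mice, and the other 3 mice of that group stood within the range of the rest. The difference was 1.56 ± 0.77 for DSS+ICB+Fp against DSS+ICB (log2, limma adjusted p = 0.251) and -1.39 ± 0.77 for DSS+ICB against DSS (adjusted p = 0.471), and without mice 3 and 5 both were 0.08.

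No gene of the 10 passed in any comparison. For DSS+ICB+Fp against DSS+ICB, which asks what the gavage adds to DSS and blockade, all 10 differences were above 0 with a median of 1.09, beside a median of -0.04 over all tested genes, of which 0.132% passed. An unadjusted p under 0.05 in the higher direction was reached by Atoh1, Gfi1 and Fcgbp, 3 of 10, where 9.34% of all genes reached it. Without DSS+ICB mice 3 and 5 the median was 0.25 and Atoh1 alone, 1 of 10, reached it, where 3.67% of all genes did. The gavaged and DSS+ICB mice overlapped for all 10 genes, while 0.945% of all genes had every gavaged mouse above.

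DSS+ICB against DSS asks what blockade adds to DSS. Here the 10 differences were below 0 with a median of -0.90, beside 0.02 over all tested genes, of which 0.0209% passed. Atoh1 reached an unadjusted p under 0.05 in the lower direction, as did 4.22% of all genes, and no gene of the 10 had every DSS+ICB mouse below every DSS mouse, as 0.327% of all genes had. Without DSS+ICB mouse 3 the median was -0.16, and without mice 3 and 5 it was 0.00, with 5 genes above 0 and 5 below. These 2 comparisons share the DSS+ICB mice, so a low mouse of that group moves both. Mouse 3 was the lowest of 15 for 9 of the 10 genes, and mouse 5 was among the lowest 3 for 9. Leaving them out therefore raises the DSS+ICB mean and draws both medians toward 0 by construction.

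In DSS+ICB+Fp against DSS the differences do not use the DSS+ICB values, while their errors do, since 1 spread per gene was estimated over all 3 groups. The differences ran from -0.02 for Muc13 to 0.67 for Atoh1, with 9 of 10 above 0 and a median of 0.33, beside -0.01 over all genes. Each limma adjusted p was 1, and 0 of 10 genes reached an unadjusted p under 0.05 in the higher direction, beside 0.591% of all genes. The 95% interval for Atoh1 was -0.48 to 1.83 and that for Muc2 -0.93 to 1.62, so differences of either sign and of over 1 log2 unit lie within them. With DSS+ICB mice 3 and 5 left out of the fit the intervals were 0.16 to 1.19 for Atoh1 and -0.06 to 0.75 for Muc2. Atoh1 then reached an unadjusted p under 0.05, 1 of 10 genes, beside 2.0% of all genes, and did not pass (limma adjusted p = 0.899). Over all genes 0.0% passed, 85 higher and 118 lower had an unadjusted p under 0.05, and 0.195% had every gavaged mouse above every DSS mouse, which none of the 10 did.

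**Figure D2:**
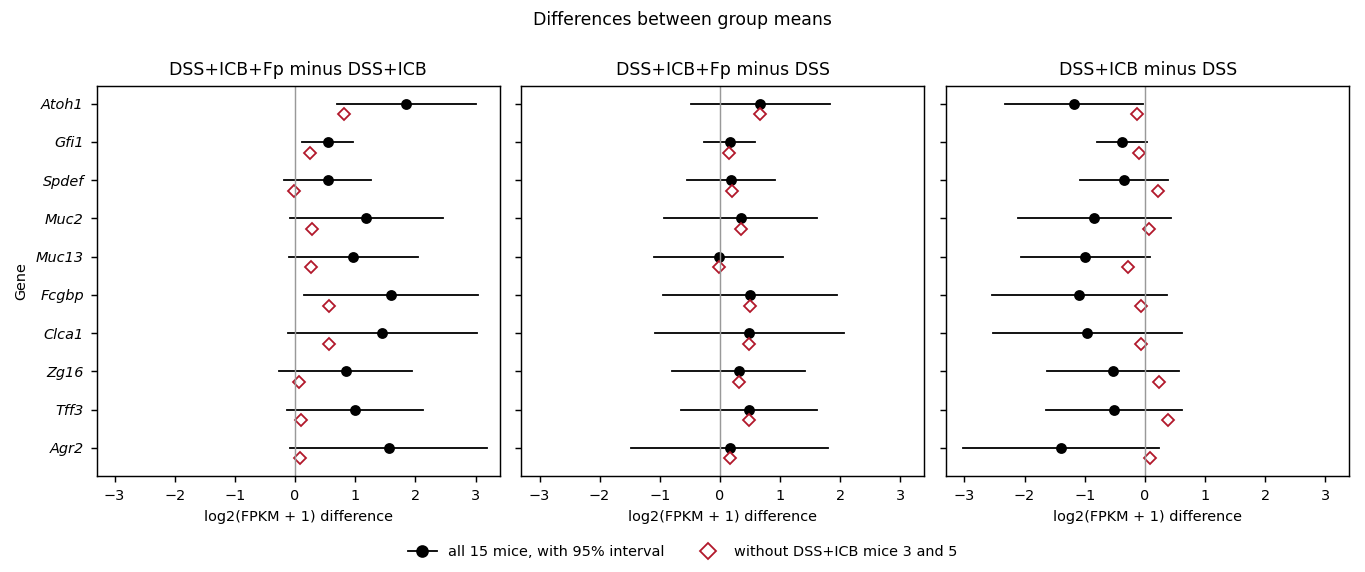
Differences of group means in log2(FPKM + 1) for the 10 genes, from all 15 mice with 95% intervals (black circles) and without DSS+ICB mice 3 and 5 (open red diamonds, no interval drawn). Against DSS+ICB the gavaged group has positive values from 0.54 to 1.85 with all mice, and without the 2 mice all but Atoh1 stand at 0.56 or lower.

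The spread of these genes set the DSS+ICB group apart from the others. Their median SD on the log2 scale was 0.269 in DSS+ICB+Fp, 1.49 in DSS+ICB and 0.47 in DSS, beside 0.226 in DSS+ICB+Fp, 0.372 in DSS+ICB and 0.22 in DSS over all tested genes. All 10 genes varied most in DSS+ICB, as did 68.5% of all genes. Without mice 3 and 5 their median SD in DSS+ICB was 0.299, beside 0.195 over all genes. Together the 10 genes made up 1.04% to 1.55% of the FPKM of a library in DSS+ICB+Fp, 0.0811% to 1.37% in DSS+ICB and 0.727% to 1.31% in DSS.

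Since epithelial markers were low in DSS+ICB mouse 3, each gene was also set against the geometric mean of the 13 epithelial markers, as a log2 ratio relative to the DSS group mean. In mouse 3 the ratio was 0.12 for Zg16, 0.01 for Tff3 and -0.05 for Spdef, so these 3 genes were low in step with the epithelial markers. Spdef at 0.385 FPKM and Atoh1 at 0.391 FPKM were near the floor in this library, and the ratio is taken without an added 1. Gfi1 stood at 0.73 and Muc13 at -0.73, Muc13 within the range of the 13 mice other than 3 and 5. The ratio was -2.30 for Agr2, -2.20 for Atoh1, -1.78 for Fcgbp, -1.67 for Clca1 and -1.13 for Muc2, each below all of the 13 mice other than 3 and 5. Over all tested genes 3.74% stood that low in mouse 3 on this scale. Division by the epithelial mean, which in mouse 3 was 0.137 of the DSS mean, raises every gene there. A gene that did not fall with the markers can then hardly stand lowest, so 3.74% is not a like baseline for epithelial genes. On the plain FPKM scale all 10 genes stood below those 13 mice, beside 38.0% of all genes. The 13 markers themselves ran from -4.04 for Spint1 to -1.49 for Cdx2 in mouse 3 against the DSS mean (log2(FPKM + 1)). On that scale Muc2 at -3.9 and Atoh1 at -3.34 lay within the range of the markers. Clca1 at -4.46, Fcgbp at -4.48 and Agr2 at -5.05 lay below it.

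DSS+ICB mouse 5 showed another pattern. Its epithelial mean was 131.4 FPKM, 0.737 of the DSS mean, and its 13 epithelial markers ran from -0.97 for Cdx1 to 0.33 for Cdx2 against the DSS mean (log2), with Vil1 at -0.05 and Epcam at -0.32. Relative to those markers Atoh1 stood at -2.11, Gfi1 at -1.73, Agr2 at -1.73 and Spdef at -0.87, each below the 13 other mice, as did 4.48% of all genes. That share, too, is lowered by dividing by an epithelial mean under that of DSS. Muc2 stood at -0.03, Clca1 at 0.32, Zg16 at -0.19 and Tff3 at -0.42, all within the range of those mice. In this mouse, relative to the epithelial markers, the 3 fate regulators and the folding enzyme were low while the transcripts of the secreted mucus proteins were not. Gfi1 and Spdef were near the floor there, at 0.272 and 1.17 FPKM in 1 library, and the ratio is taken without an added 1. Gfi1 was 0.28 FPKM in mouse 3, so its ratios of 0.73 in mouse 3 and -1.73 in mouse 5 differ through the epithelial mean. On the plain FPKM scale Fcgbp and Tff3 also stood below the 13 other mice, for 6 of 10 genes in all, beside 15.3% of all genes. It held 149.9 FPKM of Muc2 and 2.22 FPKM of Atoh1, and its ratio of Agr2 to Muc2 was 0.62, the lowest of the 15 mice, with ratios of 1.36 to 2.14 in DSS+ICB+Fp mice, 0.899 to 2.51 in the other DSS+ICB mice and 0.982 to 3.31 in DSS mice.

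**Figure D3:**
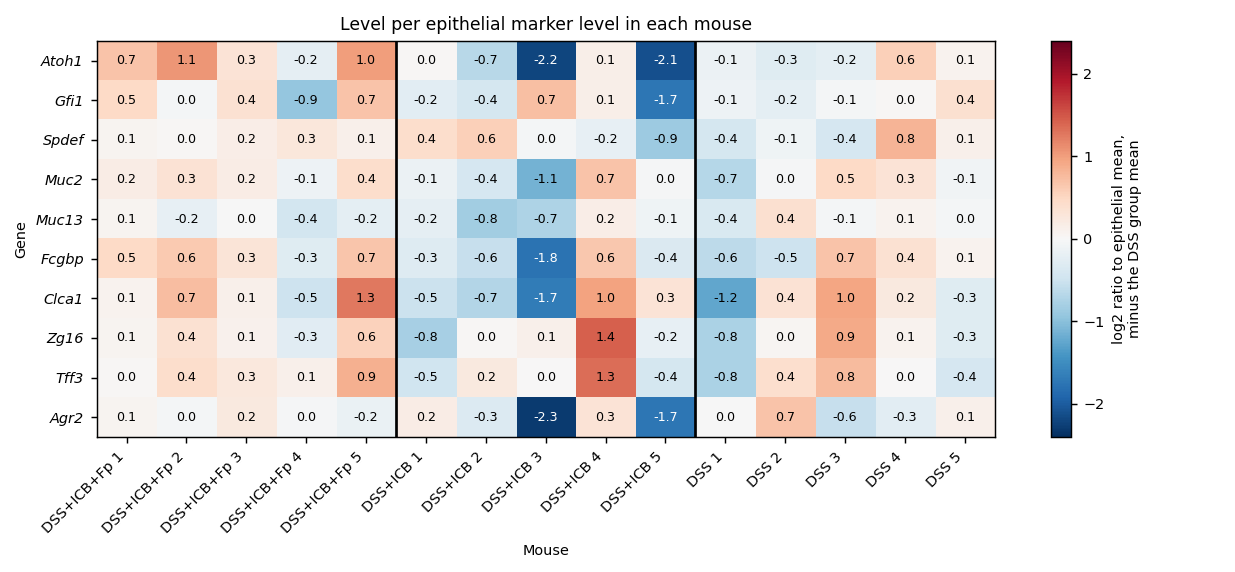
Log2 ratio of each gene (rows) to the geometric mean of 13 epithelial markers, minus the DSS group mean, in each mouse (columns, DSS+ICB+Fp, DSS+ICB and DSS from left to right). DSS+ICB mouse 3 is low for Agr2, Atoh1, Fcgbp, Clca1 and Muc2, and DSS+ICB mouse 5 is low for Atoh1, Gfi1, Agr2 and Spdef alone.

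Mice 3 and 5 were also those with the most neutrophil RNA. The summed level of 10 neutrophil markers was 2.48 to 35.2 FPKM in DSS+ICB+Fp mice, 133.4 to 2061 FPKM in DSS+ICB mice and 22.1 to 60.3 FPKM in DSS mice, with 2061 FPKM in mouse 3, 891.8 FPKM in mouse 5 and at most 241.1 FPKM in the other 3. In DSS+ICB+Fp against DSS+ICB all 9 markers tested were below 0 and 5 of them passed, beside 0.132% of all genes in either direction. S100a8 stood at -5.85 ± 0.75 (log2, limma adjusted p = 0.0061) and S100a9 at -6.10 ± 0.81 (adjusted p = 0.00702). The median log2 difference of the 9 was -2.59, and -1.79 over the 7 that were still tested without DSS+ICB mice 3 and 5, all below 0. None of the 10 markers was listed at 0 in every mouse of the study. Whether the neutrophil RNA takes part in the goblet gene values was not tested.

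Within the 10 genes, levels across mice fell into subsets. Over all 15 mice the median Spearman rho of the 45 pairs was 0.511, and 2 pairs were below 0. Without DSS+ICB mice 3 and 5, which are low for nearly every gene, it was 0.291 over 13 mice and 14 pairs were below 0. The mucus proteins kept high values without those mice, with 0.918 for Zg16 and Tff3, 0.912 for Muc2 and Fcgbp and 0.874 for Muc2 and Clca1. Atoh1 and Gfi1 had 0.791, and Atoh1 had 0.786 with Fcgbp but 0.03 with Tff3. Agr2 ran against the secreted proteins, at -0.681 with Zg16, -0.489 with Tff3 and -0.462 with Muc2. The libraries share treatment groups and tissue composition, so these correlations are given as a description, with no test.

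**Figure D4:**
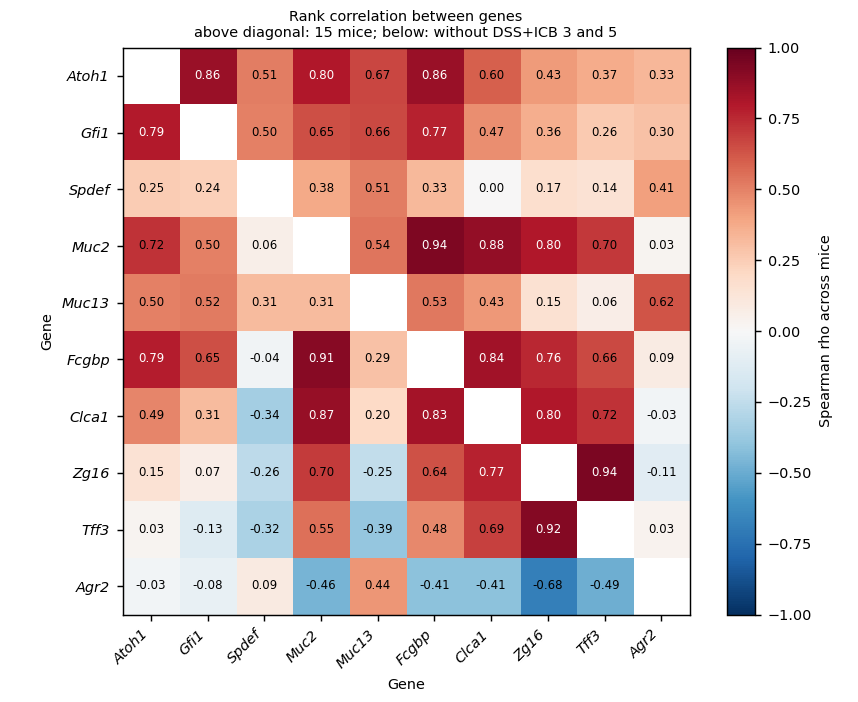
Spearman rank correlation between the 10 genes across mice, over 15 mice above the diagonal and over 13 mice, without DSS+ICB mice 3 and 5, below it. Muc2, Fcgbp, Clca1, Zg16 and Tff3 form a block of values from 0.484 to 0.918 below the diagonal, and the Agr2 row is negative with each of them.

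By level per length, Zg16 was the most abundant transcript of the 10 in every group, at 1317 ± 229.8 FPKM in DSS+ICB+Fp, 996.3 ± 779.0 FPKM in DSS+ICB and 1110 ± 422.8 FPKM in DSS (SD, n = 5 each), and the most abundant in 14 of 15 mice. In DSS+ICB mouse 1 Muc13 was higher, at 774.5 FPKM against 683.7 FPKM for Zg16. The 3 fate regulators were the lowest in every group, in the order Atoh1, Spdef and Gfi1, which held in all 15 mice. Between Tff3 and Muc13, between Clca1 and Agr2 and between Muc2 and Fcgbp the order differed between groups or between mice of a group. Fcgbp over Muc2 was 0.838 to 1.16 in DSS+ICB+Fp mice, 0.603 to 0.918 in DSS+ICB mice and 0.68 to 1.09 in DSS mice.

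The genes whose pattern over the 15 mice was most like that of the 10, by mean Spearman rho, were Rep15 (0.694), Cyp2d10 (0.688), 5033404E19Rik (0.673), Gcnt3 (0.673), Rasd2 (0.666) and Gal3st2 (0.665). Over the 13 mice without DSS+ICB mice 3 and 5 these 6 genes had 0.493 to 0.54. Rep15, which encodes a RAB15 effector and is on the list of other goblet markers, measured 48.4, 54.3, 48.0, 38.9 and 60.4 FPKM in DSS+ICB+Fp mice, 28.6, 28.2, 1.99, 32.7 and 7.98 FPKM in DSS+ICB mice, and 24.0, 27.2, 37.2, 43.6 and 42.8 FPKM in DSS mice. All 5 gavaged mice lay above all 5 DSS+ICB mice, as for 0.945% of all genes, though Rep15 was picked by its likeness over these same mice. Its difference of 1.74 ± 0.53 did not pass (log2, limma adjusted p = 0.107), and was 0.72 without DSS+ICB mice 3 and 5. Muc2 alone was most like Cyp2d10 (0.932), Rep15 (0.907) and Khk (0.9), Atoh1 was most like Agpat1 (0.982), Llgl2 (0.971) and Mccc2 (0.968), and Clca1 was most like Cyp2d12 (0.904), D330045A20Rik (0.9) and 2010106E10Rik (0.896). Reads shared within the Cyp2d family make the split between its genes uncertain.

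As a list, other goblet cell markers gave a similar account. Of 16 tested, 13 were above 0 in DSS+ICB+Fp against DSS+ICB with a median log2 difference of 0.87, and 0 passed. An unadjusted p under 0.05 was reached by 11 of them in the higher direction, beside 9.34% of all genes. Without DSS+ICB mice 3 and 5 their median was 0.31 and 5 of them reached it, beside 3.67% of all genes. Bcas1, which mature goblet cells express, averaged 26 ± 11.4 FPKM in DSS+ICB+Fp, 12.9 ± 8.18 FPKM in DSS+ICB and 20.7 ± 6.37 FPKM in DSS (SD, n = 5 each). Its log2 difference in DSS+ICB+Fp against DSS+ICB was 1.13, and 0.44 without DSS+ICB mice 3 and 5. Reg4, a secreted lectin of deep crypt secretory cells, was 21 and 86.0 FPKM in DSS+ICB mice 3 and 5 and at least 282.5 FPKM in all other mice. Its difference in DSS+ICB+Fp against DSS+ICB was 0.99 with all mice and -0.41 without those 2. It was then among 4 of the 16 markers below 0, with 12 above. Retnlb, a goblet cell protein that acts on Gram-negative bacteria, ran from a listed 0 to 19.6 FPKM in DSS+ICB+Fp mice, from 0.186 to 15 FPKM in DSS+ICB mice and from 0.889 to 21.8 FPKM in DSS mice, with no order between groups. Sytl2, a vesicle transport gene, had a difference of 0.24 ± 0.18 between DSS+ICB+Fp and DSS+ICB (log2, limma adjusted p = 0.447).

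Of 10 other mucin genes 4 passed the filter on low values, 2 were listed at 0 in every mouse, and none passed the test. Muc1, a transmembrane mucin, measured 10.6, 8.44, 8.75, 7.46 and 14.0 FPKM in DSS+ICB+Fp mice, 6.52, 3.48, 2.5, 6.95 and 4.71 FPKM in DSS+ICB mice, and 5.16, 6.35, 7.18, 10.7 and 8.2 FPKM in DSS mice. Each gavaged mouse lay above each DSS+ICB mouse, as for 0.945% of all genes. The log2 difference of Muc1 was 0.93 ± 0.24 (limma adjusted p = 0.0851), and 0.72 without DSS+ICB mice 3 and 5. Muc4 had 0.74 ± 0.32 in that comparison (adjusted p = 0.204), and Muc3, which shares sequence with a near copy so that its reads may be split, had 1.03 ± 0.52 (adjusted p = 0.263). Without mice 3 and 5 these were 0.36 for Muc4 and 0.17 for Muc3.

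Sugars are added to mucins by a chain of transferases, of which 20 of 23 listed were tested and 0 passed in any comparison. Their median log2 difference was 0.75 in DSS+ICB+Fp against DSS+ICB and -0.55 in DSS+ICB against DSS, and 0.21 and -0.06 without DSS+ICB mice 3 and 5. C1galt1, the core 1 synthase, and its chaperone C1galt1c1 each had 0.40 in DSS+ICB+Fp against DSS+ICB (limma adjusted p = 0.438 and 0.317). Galnt3 and Galnt12, which start the sugar chains, had 0.22 and 0.58. Without DSS+ICB mice 3 and 5 the values were 0.08 for C1galt1, 0.04 for C1galt1c1, -0.27 for Galnt3 and -0.15 for Galnt12. B3gnt6, the core 3 synthase, was at most 0.344 FPKM and St6galnac1, a sialyltransferase, at most 0.16 FPKM in any mouse, so neither was tested.

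Genes for folding in the endoplasmic reticulum and its stress response stood near 0 as a list, with a median log2 difference over 24 genes of 0.05 in DSS+ICB+Fp against DSS+ICB, -0.03 in DSS+ICB+Fp against DSS and -0.14 in DSS+ICB against DSS. Ern2, the stress sensor of mucus-secreting epithelium, differed from that median, at 20.7, 18.2, 18.4, 12.1 and 25.9 FPKM in DSS+ICB+Fp mice, 16.5, 10.8, 0.296, 10.2 and 5.45 FPKM in DSS+ICB mice, and 15.7, 12.1, 11.7, 15.7 and 20 FPKM in DSS mice. Its difference was 1.44 ± 0.51 for DSS+ICB+Fp against DSS+ICB (log2, limma adjusted p = 0.141), and 0.56 without DSS+ICB mice 3 and 5. Creb3l1, Xbp1 and the chaperone Hspa5 had 0.61, 0.23 and -0.02 in the same comparison, and -0.05, 0.06 and -0.22 without those mice. Of the 24 genes, 6 reached an unadjusted limma p under 0.05 in the higher direction in that comparison and 0 in the lower, beside 9.34% of all genes higher. Without those mice 3 were higher, beside 3.67% of all genes, and 3 lower, beside 14.3%.

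Of 22 genes that set secretory fate, Notch components among them, 18 were tested and 0 passed. Of the Notch genes, the ligands Dll1 and Dll4 stood at 0.14 and 0.21, the receptor Notch1 at -0.01 and the repressor Hes1 at 0.45 in DSS+ICB+Fp against DSS+ICB (log2). The 95% interval of Hes1 was -0.11 to 1.0. Dll1, Dll4 and Notch1 measured at most 5.13 FPKM, where the added 1 shrinks differences. Klf4, which goblet cells of the mouse colon need to mature, averaged 165.4 ± 34.3 FPKM in DSS+ICB+Fp, 82.8 ± 45.6 FPKM in DSS+ICB and 133.9 ± 37.0 FPKM in DSS (SD, n = 5 each). Every gavaged mouse lay above every DSS+ICB mouse for Klf4, as for 0.945% of all genes. The difference was 1.29 ± 0.46 (limma adjusted p = 0.143), and 0.57 without DSS+ICB mice 3 and 5. Foxa1, Foxa2 and Foxa3, forkhead factors active in secretory cells, had 0.77, 1.12 and 0.70, and Sox9, a crypt progenitor factor, had 0.13. Without those mice the values were 0.16, 0.27 and 0.08 for Foxa1, Foxa2 and Foxa3, -0.19 for Sox9 and 0.08 for Hes1.

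Absorptive cells showed values of the same sign as goblet cells. The 13 colonocyte genes tested had a median log2 difference of 1.59 in DSS+ICB+Fp against DSS+ICB and -1.20 in DSS+ICB against DSS, and the 13 epithelial markers had 0.80 and -0.63, with 0 passing in each. Slc26a3, the chloride exchanger of surface colonocytes, averaged 91.4 ± 57.8 FPKM in DSS+ICB+Fp, 17.1 ± 13.8 FPKM in DSS+ICB and 52.1 ± 12.8 FPKM in DSS (SD, n = 5 each). The carbonic anhydrase Car4 averaged 320.6 ± 89.6 FPKM in DSS+ICB+Fp, 123.8 ± 66.5 FPKM in DSS+ICB and 211.9 ± 42.1 FPKM in DSS. With mice 3 and 5 left out the colonocyte medians were 0.55 and -0.41, the epithelial marker medians 0.11 and -0.01 and the goblet gene medians 0.25 and 0.00. Whether the 2 cell types differ in their response was not tested.

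**Figure D5:**
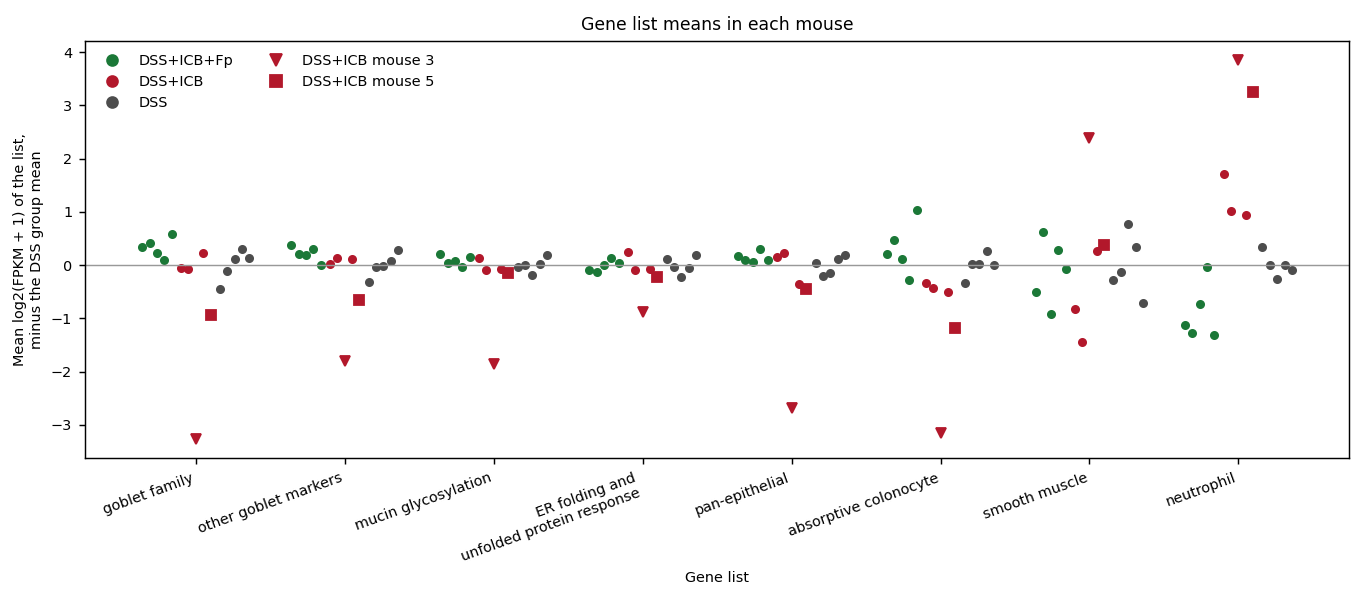
Mean log2(FPKM + 1) of each gene list, minus the DSS group mean, in each mouse, with DSS+ICB+Fp (green), DSS+ICB (red) and DSS (grey) from left to right within a list. DSS+ICB mice 3 (triangle) and 5 (square) stand at -3.27 and -0.94 for the goblet genes and at 3.86 and 3.25 for the neutrophil genes, while mucin glycosylation stands at -1.85 and -0.14.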

How the data were processed

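Gene expression was measured in colon tissue of 15 mice, 5 in each of DSS+ICB+Fp, DSS+ICB and DSS, grouped by the treatment label. Per the submitters' processing notes, reads were checked with FastQC, aligned with STAR 2.5 to mm10 and quantified with Cuffnorm, with DESeq listed as well. The files hold FPKM per gene as the authors deposited them, and whether they were scaled further between libraries is not given in the sources used here. Depth is not stated. The smallest steps between values gave estimates of 15.67 to 25.41 M fragments, which hold only without further scaling, and the values allow no count test.

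Of 55335 Ensembl IDs, 55154 matched a symbol in GENCODE M21 (GRCm38). The test took the 14385 genes that reached 1 FPKM or more in 5 or more libraries, as log2(FPKM + 1) with limma 3.58.1 in R 4.3.3 (trend, robust), 1 mean per group over all 15 libraries, two-sided, with Benjamini-Hochberg adjustment over all tested genes. The procedure was tested on simulated data. The labels do not say that the mice were housed or processed separately. The p-values take the mice as independent, which could not be checked.

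The 10 genes, the other gene lists and the tests were chosen with earlier results of these data known. Named genes are the 10, a fixed set from the lists, list members that passed, and the genes with the highest Spearman rho to them. E-box and other motif counts, list sums and ratios are descriptions with no test. Alternatives were median-of-ratios, upper-quartile and epithelial scaling, 2 other pseudocounts (0.1 and 10), leaving the filter out or raising it to 5 FPKM, fitting only the 2 groups compared, sample quality weights, and leaving out each mouse or DSS+ICB mice 3 and 5. Epithelial scaling without DSS+ICB mouse 3 was chosen after seeing the data. DSS+ICB mice 3 and 5 were likewise picked out by their values in these data, as the labels do not set them apart.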

Additional observations from a re-analysis of the deposited data

Results flagged for a closer look

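Within each group of 5 mice, the gap between the most extreme mouse and its neighbour, as a share of the group's range, was compared with Dixon's 95% critical value of 0.71 for the 10 genes. Of 30 groups checked, 5 exceeded it, where chance gives about 1 in 20. DSS+ICB mouse 3 gave 4 of them as the lowest of its group, with 13 FPKM for Muc2, 65.7 FPKM for Muc13, 17.7 FPKM for Clca1 and 7.87 FPKM for Fcgbp. The other was Spdef in DSS+ICB+Fp mouse 4, the highest of its group at 4.38 FPKM, which lay below 5.07 FPKM in DSS+ICB mouse 2 and 5.52 FPKM in DSS mouse 4.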

How the results depend on the processing

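For each comparison the 10 goblet genes gave 258 log2 differences over 26 alternative settings (Gfi1 and Spdef left the test with the filter at 5 FPKM), of which 242 kept direction and side of the threshold for DSS+ICB against DSS, 256 for DSS+ICB+Fp against DSS+ICB and 249 for DSS+ICB+Fp against DSS. The one call was Atoh1 in DSS+ICB+Fp against DSS+ICB without DSS+ICB mouse 1 (2.19, limma adjusted p = 0.0422; over its alternatives adjusted p ran from 0.0422 to 0.249), and the cause was not tested. Signs turned for DSS+ICB against DSS without DSS+ICB mice 3 and 5 (Muc2 0.064, Spdef 0.22, Zg16 0.24, Tff3 0.38, Agr2 0.080), with sample quality weights (Clca1 0.048, Zg16 0.25, Tff3 0.35), with epithelial scaling (Zg16 0.086, Tff3 0.10), and with epithelial scaling without DSS+ICB mouse 3 (Muc2 0.030, Clca1 0.016, Zg16 0.12, Tff3 0.17). Epithelial scaling shifted the median of all genes by 0.555 in DSS+ICB against DSS, by -0.668 in DSS+ICB+Fp against DSS+ICB and by -0.117 in DSS+ICB+Fp against DSS, so Zg16 and Tff3 stood below the median of all genes in DSS+ICB against DSS. Spdef was -0.024 in DSS+ICB+Fp against DSS+ICB without DSS+ICB mice 3 and 5, and Muc13 in DSS+ICB+Fp against DSS was 0.0054 with median-of-ratios scaling and 0.020 with quality weights. With 1 mouse left out, DSS+ICB against DSS ran from -0.93 to 0.021 for Zg16 and from -0.88 to 0.072 for Tff3, and DSS+ICB+Fp against DSS from -0.099 to 0.032 for Muc13 and from -0.017 to 0.28 for Agr2.

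Over all genes, DSS+ICB against DSS had 3 higher calls, 1 with upper-quartile scaling, a pseudocount of 10, no filter, the filter at 5 FPKM or without mice 3 and 5, and 0 with either epithelial scaling, a pseudocount of 0.1 or the 2-group fit, which gave 1 lower call in place of 0. DSS+ICB+Fp against DSS+ICB had 1 higher and 18 lower calls. The higher count was 0 with epithelial scaling, either pseudocount, the filter at 5 FPKM, the 2-group fit or without mice 3 and 5, 221 with quality weights and 16 with epithelial scaling without mouse 3. The lower count was 4 with epithelial scaling, 42 and 5 with pseudocounts of 0.1 and 10, 6 without a filter, 11 with the filter at 5 FPKM, 743 with quality weights, 0 in the 2-group fit and 808 with epithelial scaling without mouse 3. With 1 mouse left out, higher calls in DSS+ICB against DSS ran from 0 (without DSS mouse 2, 3 or 4) to 7 (without DSS+ICB mouse 4), and were 1 or 2 without any other mouse. Higher calls in DSS+ICB+Fp against DSS+ICB ran from 0 to 226, with 226 without DSS+ICB mouse 1, 125 without DSS+ICB+Fp mouse 4, 26 without DSS+ICB mouse 2, 2 without DSS+ICB mouse 4, and 0 or 1 otherwise. Lower calls ran from 5 to 361, with 361, 107 and 72 without DSS+ICB mice 1, 2 and 4, 331 without DSS+ICB+Fp mouse 4, 9 and 8 without DSS+ICB mice 3 and 5, 5 or 6 without another DSS+ICB+Fp mouse, and 11 to 14 without a DSS mouse. DSS+ICB+Fp against DSS had 0 calls under each setting. The causes were not tested. No paired analysis was possible because the labels give the mice no numbers shared between groups. Depth is unknown, so no counting error stands beside the FPKM of Gfi1 and Spdef, the lowest of the 10.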
